A study of Mus musculus with 14 samples.

Results

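The potassium channel genes were taken as every gene symbol in the expression table that begins with Kcn, the mouse prefix for potassium channel subunits and a few genes that regulate them. There were 95 of them among 23427 genes. Of these, 37 reached 1 FPKM in at least 2 of the 14 libraries and are described here, and the other 58 were only counted. FPKM (fragments divided by exon length and by sequencing depth) corrects for gene length, so levels can be compared between genes. The same minimum was passed by 11874 of all genes, which is 50.7%, against 38.9% of the potassium channel genes.

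The cells were wild-type C57BL/6J mouse primary oligodendrocyte precursor cells (OPCs), the dividing cells that give rise to myelin-forming oligodendrocytes (OLs), collected by binding to an antibody against Pdgfra and cultured. Messenger RNA was sequenced from 14 libraries in 7 groups of 2: OPCs at Day0, and 6 groups at Day3. In its differentiation series the paper counts days from growth factor withdrawal and addition of the thyroid hormone T3. For the transfected cells its methods give the time from transfection to harvest but do not restate the withdrawal or T3. The labels give the day only. The Day3 groups were non-treat (cells given no transfection), mock (transfection without siRNA), NC siRNA#1 and NC siRNA#2 (a pair of non-targeting siRNAs), siSbp2l (siRNA against Secisbp2l, the SECIS-binding protein Sbp2l) and siPdgfra (siRNA against the growth factor receptor Pdgfra). The paper lists more than 1 siRNA against Sbp2l and none against Pdgfra. How many were used for each library is not given in the labels. The replicates were independent cultures, and all 7 groups were from the same strain.

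Potassium channels let potassium ions leave or enter the cell down their gradient and hold the membrane potential near the resting value. Voltage-gated (Kv) channels open on depolarisation, inward rectifiers (Kir) pass current near rest, tandem-pore (K2P) channels leak potassium at all voltages, and calcium-activated channels couple the potential to calcium inside the cell. OPCs carry large Kv currents, which have been tied to their proliferation, whereas mature OLs are dominated by inward rectification and take up potassium released by active axons.

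Promoters are shown for 4 genes whose levels followed different courses over the groups, as described further on: Kcna2 and Kcnj10, which were higher at Day3 and lower in siSbp2l, Kcna5, which was higher with both non-targeting siRNAs, and Kcnmb4, which was lowest in siPdgfra. Each run is the 250 bases before the start site in RefSeq (GRCm38.p6), read 5′ to 3′ on the strand of the gene, at chr3:107101317-107101566 (plus strand), chr1:172340960-172341209 (plus), chr6:126535556-126535805 (minus) and chr10:116473524-116473773 (minus). Capitals mark any match, on either strand, to AGGTCA (the half-site of nuclear receptors, thyroid hormone receptors among them), ACAAAG (bound by Sox factors), CAGCTG (an E-box, bound by basic helix-loop-helix factors such as Olig2) or CTGGNAC (the Myrf motif).
Kcna2: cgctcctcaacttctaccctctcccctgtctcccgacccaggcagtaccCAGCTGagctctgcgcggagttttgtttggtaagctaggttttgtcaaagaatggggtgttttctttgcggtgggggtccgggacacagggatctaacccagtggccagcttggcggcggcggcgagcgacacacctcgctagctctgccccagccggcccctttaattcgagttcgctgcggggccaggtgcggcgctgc
Kcnj10: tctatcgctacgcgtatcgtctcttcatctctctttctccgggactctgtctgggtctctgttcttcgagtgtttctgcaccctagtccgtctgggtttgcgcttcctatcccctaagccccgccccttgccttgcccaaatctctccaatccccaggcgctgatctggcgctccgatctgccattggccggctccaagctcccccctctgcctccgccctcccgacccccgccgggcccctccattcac
Kcna5: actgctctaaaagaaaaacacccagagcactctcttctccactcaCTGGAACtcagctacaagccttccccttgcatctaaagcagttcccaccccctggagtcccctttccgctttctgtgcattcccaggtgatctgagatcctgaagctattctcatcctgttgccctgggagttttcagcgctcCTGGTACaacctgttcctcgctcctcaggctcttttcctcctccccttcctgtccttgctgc
Kcnmb4: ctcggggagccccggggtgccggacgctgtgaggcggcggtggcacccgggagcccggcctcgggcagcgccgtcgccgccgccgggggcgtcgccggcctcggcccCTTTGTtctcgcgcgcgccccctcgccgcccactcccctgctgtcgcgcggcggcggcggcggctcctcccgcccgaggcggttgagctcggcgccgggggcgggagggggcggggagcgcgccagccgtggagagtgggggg

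The run of Kcna2 held 1 E-box, that of Kcna5 held 2 Myrf matches, that of Kcnmb4 held 1 Sox match, and that of Kcnj10 held none of the 4. Of the 37 genes, 30 had a promoter in the RefSeq table and 22 had one that began at the start the expression table gives. Among those 22, AGGTCA was held by 2, ACAAAG by 2, CAGCTG by 5 and CTGGNAC by 6. Over all 32851 promoters of this length the shares were 14%, 16.5%, 13% and 16.1%. A match describes the letters only.

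Library depth, recovered from the steps between low values, ran from 6560819 fragments in NC siRNA#2 replicate 2 to 31621250 in Day0 replicate 1. The non-treat pair stood apart: the SD of the log2 difference between its replicates was 0.457 over all genes, against 0.148 to 0.2 in the other groups, and 0.348 against 0.119 to 0.186 over the potassium channel genes. Results that rest on non-treat are therefore also given without it. Secisbp2l was 3.91 and 3.82 FPKM in siSbp2l against 135 to 255 FPKM in the 8 Day3 control libraries, and Pdgfra was 3.30 and 2.69 FPKM in siPdgfra against 32.4 to 72.1 FPKM. The summed FPKM of 7 OL markers was 396 to 440.1 at Day0, 6357 to 7546 in non-treat and mock, 8543 to 8720 in NC siRNA#1, 4656 to 4795 in NC siRNA#2, 1618 to 1806 in siSbp2l and 4136 to 4786 in siPdgfra. The summed level of 6 OPC markers was 1220 to 1292 FPKM at Day0 and 588 to 872 FPKM at Day3. These markers did not move together. Pdgfra, Cspg4, Ptprz1 and Olig2 were lower in every Day3 library than at Day0. Gpr17 was 47.3 to 57.7 FPKM at Day0 and 87.8 to 229 FPKM at Day3, and Sox10 was 133 to 168 and 167 to 318 FPKM. The sum includes Pdgfra, the target of siPdgfra, which was 144 to 150 FPKM in siSbp2l. The summed level of 7 neuron markers was 27.6 to 29.5 FPKM at Day0 and 48.2 to 277 FPKM in the Day3 controls. It was 200.4 to 202 FPKM in siSbp2l and 236 to 240.4 FPKM in siPdgfra, most of it from Tubb3. The rest followed different courses. Syt1 was 2.41 to 2.71 FPKM at Day0 and 0.354 to 1.70 FPKM in the Day3 controls. In siSbp2l it was 4.94 to 5.16 FPKM and in siPdgfra 4.49 to 4.95 FPKM. Rbfox3 was 1.10 to 1.20 FPKM in siSbp2l and at most 0.599 FPKM in the other groups. Snap25 was 1.78 to 2.30 FPKM at Day0 and at most 0.753 FPKM at Day3. Gad1, Slc17a7 and Stmn2 reached at most 0.916, 0.102 and 0.0758 FPKM in any library. The astrocyte markers summed to 33.8 to 36.1 FPKM at Day0 and 37.6 to 135 FPKM at Day3, with Gfap at 0.677 to 79.2 FPKM and Gja1 at 0.0523 FPKM or less. Microglial markers summed to at most 9.46 FPKM, nearly all of it P2ry12, mural markers to at most 2.90 FPKM, and endothelial and fibroblast markers to at most 0.2 and 0.18 FPKM. In bulk RNA, fewer cells of a type and less RNA per cell cannot be told apart.

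Few of the potassium channel genes were abundant. The 37 that passed had a median of 1.80 FPKM, each gene averaged over the 14 libraries, against 12.5 FPKM for all genes that passed, and 6 of them averaged at least 10 FPKM. In order, those were Kcna1 (151 FPKM), Kcnj10 (112), Kcnip3 (52.1), Kcna2 (41.9), Kcna6 (25.1) and Kcnd3 (10.7), and Kcna5 averaged 9.24 FPKM. By family, 16 of 30 Kv pore-forming genes passed, 5 of 12 Kv accessory genes, 6 of 15 inward rectifiers, 4 of 14 tandem-pore genes, 5 of 12 calcium- or sodium-activated channel genes, and none of the 10 electrically silent Kv subunits, which need another Kv subunit to form a channel. Of the 2 symbols that code no channel subunit, Kcnrg, a regulator of Kv assembly, passed and the antisense RNA Kcnq1ot1 did not.

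Of the 58 genes under the minimum, 4 were listed at 0 in every library (Kcnmb1, Kcnmb2, Kcnk16 and Kcnv2) and 25 never reached 0.1 FPKM. The highest value among them was 1.03 FPKM, for Kcnj9. By the second highest library, which decides the minimum, the genes just inside were Kcnk13 (1.06 FPKM), Kcnn3 (1.07), Kcnq5 (1.07) and Kcnq1 (1.08), and those just outside were Kcnj9 (0.915), Kcnt1 (0.878), Kcnu1 (0.836) and Kcnj14 (0.731). Kcnj8, an inward rectifier of mural cells, stayed below the minimum. Of the 37, 6 passed only through the 2 libraries of 1 group: Kcnma1 at Day0, Kcnn1 and Kcnn3 in mock, and Kcna4, Kcnq1 and Kcnk13 in siPdgfra. A gene that passed in that way had to be higher in both libraries of that group than in all others, by whatever amount. Its differences are therefore given as values. Kcna4 (in siPdgfra against controls) and Kcnq1 (in siSbp2l against siPdgfra) enter the counts of called genes below with that limit.

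**Figure D1:**
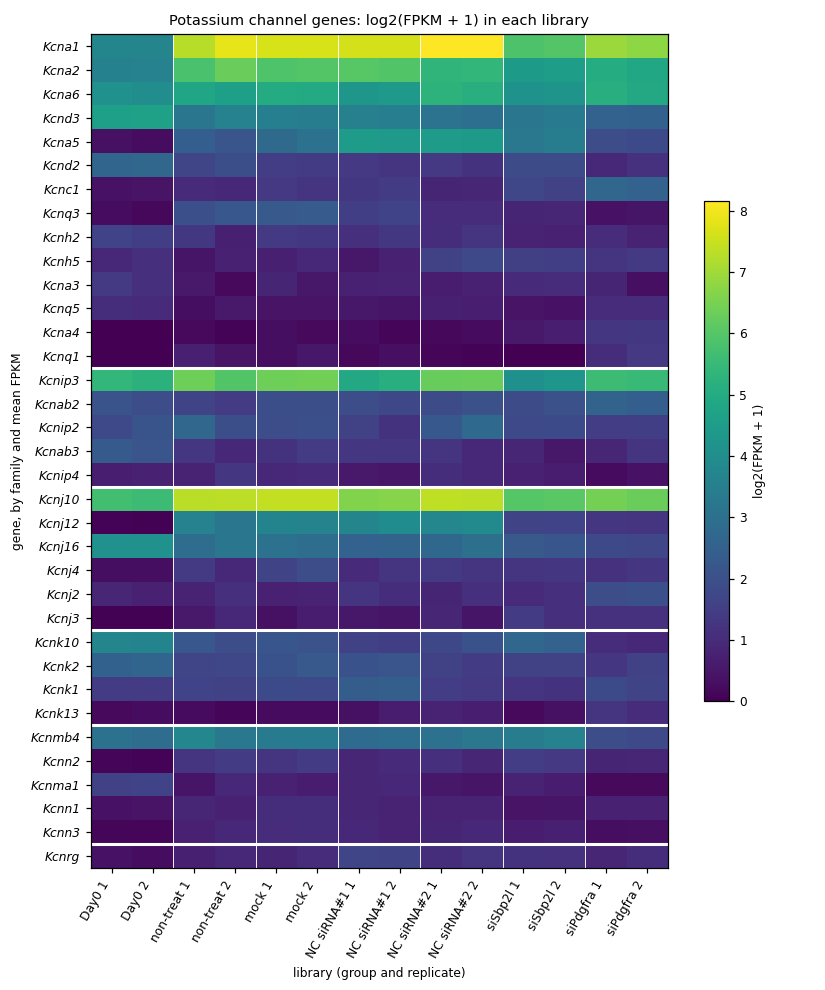
log2(FPKM + 1) of 35 of the 37 potassium channel genes (rows, grouped by family with white lines between families) in the 14 libraries (columns, 2 per group). Kcna1 (151 FPKM on average) and Kcnj10 (112 FPKM) are the brightest rows, and most others average under 10 FPKM.

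The first comparison asked how the potassium channel genes differed between Day0 and Day3 without siRNA (the mean of non-treat and mock). Genes were called where the fold change was at least 2 in either direction on log2(FPKM + 1) and the adjusted p of limma, over all 11874 genes, was under 0.05. By that rule 13 of 37 potassium channel genes were called (35.1%), 8 higher and 5 lower at Day3, where 26% of all genes tested were called, 11.6% higher and 14.4% lower. Log2 changes are on log2(FPKM + 1) and are given ± SE. The median log2 change was 0.27 over the 37 genes and −0.09 over all genes. Rescaling the libraries by the median ratio or by the upper quartile gave 9 higher and 3 lower. Compared with Day0 one at a time, non-treat gave 11 calls and mock 13.

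Among the Kv pore-forming genes, 4 were called as higher and 2 as lower. Kcna1 and Kcna2 encode the delayed rectifier subunits best known from the juxtaparanodes of myelinated axons. Kcna1 was 12.5 and 12.2 FPKM at Day0, 156 and 229 in non-treat, 199.6 and 202 in mock, 196 and 196 in NC siRNA#1, 279 and 284 in NC siRNA#2, 58.1 and 61.6 in siSbp2l and 119.8 and 107 in siPdgfra. The Day3 control libraries were all above the knockdown libraries, and Day0 was lowest, with a log2 change from Day0 to Day3 without siRNA of 3.88 ± 0.13, adjusted p = 3.67e-10 in limma. Kcna2 was 11.0 and 11.3 FPKM at Day0, 55.3 and 77.2 in non-treat, 59.8 and 61.6 in mock, 64.6 and 60.6 in NC siRNA#1, 39.8 and 41.0 in NC siRNA#2, 20.6 and 22.5 in siSbp2l and 32.1 and 28.7 in siPdgfra, again lowest at Day0 (2.39 ± 0.12, adjusted p = 7.92e-09, limma). Kcna5, another Kv1 subunit and one of those reported in OPCs, was 0.284 and 0.207 FPKM at Day0, 4.39 and 3.43 in non-treat, 6.11 and 7.18 in mock, 21.2 and 20.1 in NC siRNA#1, 22.0 and 20.6 in NC siRNA#2, 8.65 and 9.69 in siSbp2l and 2.85 and 2.56 in siPdgfra. It rose by 2.29 ± 0.10, adjusted p = 3.94e-09 (limma), and the libraries of every Day3 group lay above both Day0 libraries. Kcnq3, a subunit of the slow M-type current, was 0.209 and 0.124 FPKM at Day0, 2.96 and 3.66 in non-treat, 3.88 and 4.08 in mock, 1.85 and 2.15 in NC siRNA#1, 1.05 and 1.06 in NC siRNA#2, 0.788 and 0.817 in siSbp2l and 0.325 and 0.382 in siPdgfra, with a change from Day0 of 1.99 ± 0.09, adjusted p = 2.83e-09 (limma).

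The Kv pore-forming genes called as lower were the Kv4 pair. Kcnd2 and Kcnd3 carry the fast inactivating A-type current recorded in OPCs. Kcnd3 was 23.4 and 24.3 FPKM at Day0, 8.21 and 11.3 in non-treat, 10.5 and 9.91 in mock, 10.8 and 10.3 in NC siRNA#1, 7.59 and 6.94 in NC siRNA#2, 8.30 and 9.19 in siSbp2l and 4.97 and 4.75 in siPdgfra. Both Day0 libraries exceeded all 12 Day3 libraries, and the log2 change was −1.18 ± 0.11, adjusted p = 2.03e-06 in limma. Kcnd2 was 5.39 and 5.42 FPKM at Day0, 2.23 and 2.88 in non-treat, 1.82 and 1.73 in mock, 1.54 and 1.35 in NC siRNA#1, 1.55 and 1.31 in NC siRNA#2, 2.62 and 2.73 in siSbp2l and 0.925 and 1.25 in siPdgfra (−1.03 ± 0.10, adjusted p = 2.99e-06, limma). Its call was lost under both rescalings, with non-treat alone and without non-treat replicate 1. It was also lost with 5 added to FPKM in place of 1. Among Kv genes not called, Kcna3 went from 1.39 to 0.467 FPKM (−0.71 ± 0.15). Kcnq5 went from 1.02 to 0.351 FPKM (−0.58 ± 0.08), so both were lower but under the fold minimum on log2(FPKM + 1).

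The remaining Kv1 genes named for this family changed less. Kcna6, which lies beside Kcna1 on chromosome 6 (62.5 kb apart, with Kcna5 a further 100.9 kb on the other side of Kcna1), was 16.6 and 14.8 FPKM at Day0, 27.2 and 23.3 in non-treat, 31.3 and 30.8 in mock, 18.9 and 20.2 in NC siRNA#1, 37.4 and 33.6 in NC siRNA#2, 17.0 and 17.6 in siSbp2l and 33.3 and 29.5 in siPdgfra, a log2 change of 0.80 ± 0.09 that stayed under the fold minimum. An annotated antisense transcript covers 39.6% of the exons of Kcna6, and although the library kit keeps the strand, whether fragments were counted by strand is not given in the sources used here. Kcna4 was 0 and 0.0184 FPKM at Day0, 0.144 and 0.0677 in non-treat, 0.238 and 0.149 in mock, 0.199 and 0.108 in NC siRNA#1, 0.123 and 0.189 in NC siRNA#2, 0.458 and 0.599 in siSbp2l and 1.45 and 1.48 in siPdgfra, with a change of 0.19 ± 0.08.

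Of the 5 Kv accessory genes that passed, 1 was called as lower and none as higher. Kcnab3, a cytoplasmic beta subunit, was 3.94 and 3.43 FPKM at Day0, 1.45 and 0.904 in non-treat, 1.27 and 1.71 in mock, 1.42 and 1.45 in NC siRNA#1, 1.36 and 0.901 in NC siRNA#2, 0.817 and 0.454 in siSbp2l and 0.829 and 1.40 in siPdgfra. Its change of −1.02 ± 0.16, adjusted p = 0.000128 (limma) lay at the fold minimum. The call was lost under both rescalings, with mock alone and without Day0 replicate 1, non-treat replicate 2 or mock replicate 1. It was also lost with 5 added to FPKM in place of 1. Kcnip3, a calcium-binding partner of Kv4 channels also known as a transcriptional repressor, was 41.7 and 37.1 FPKM at Day0, 80.8 and 60.3 in non-treat, 81.8 and 84.1 in mock, 29.1 and 34.8 in NC siRNA#1, 75.0 and 77.5 in NC siRNA#2, 16.0 and 18.3 in siSbp2l and 47.3 and 45.0 in siPdgfra. Its Day3 change of 0.93 ± 0.12 stayed just under the fold minimum.

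Inward rectifiers gave 3 genes called as higher and 1 as lower. Kcnj10 encodes the main inward rectifier of glia, which carries potassium uptake and sets their resting potential. It was 50.1 and 47.5 FPKM at Day0, 158 and 161 in non-treat, 167 and 169 in mock, 96.1 and 102 in NC siRNA#1, 166 and 163 in NC siRNA#2, 63.5 and 66.6 in siSbp2l and 86.6 and 76.8 in siPdgfra, a rise of 1.73 ± 0.08, adjusted p = 2.96e-09 in limma. Kcnj12, a strong inward rectifier of the Kir2 group, was 0.0643 and 0.0402 FPKM at Day0, 11.3 and 8.20 in non-treat, 11.96 and 11.5 in mock, 12.1 and 14.7 in NC siRNA#1, 12.7 and 13.6 in NC siRNA#2, 2.21 and 2.09 in siSbp2l and 1.47 and 1.36 in siPdgfra. It was close to absent at Day0 and above 8 FPKM in all 8 Day3 control libraries, with a log2 change of 3.47 ± 0.12, adjusted p = 5.16e-10 (limma). Kcnj4, of the same Kir2 group, was 0.220 and 0.227 FPKM at Day0, 1.60 and 0.936 in non-treat, 2.19 and 2.77 in mock, 0.990 and 1.37 in NC siRNA#1, 1.61 and 1.42 in NC siRNA#2, 1.40 and 1.46 in siSbp2l and 1.26 and 1.46 in siPdgfra. It rose by 1.19 ± 0.13, adjusted p = 6.01e-06 (limma), a call lost with non-treat alone and with 5 added to FPKM in place of 1. Kcnj16, which forms channels together with Kcnj10, moved the other way. It was 16.5 and 16.3 FPKM at Day0, 6.48 and 8.24 in non-treat, 7.17 and 6.50 in mock, 4.94 and 5.06 in NC siRNA#1, 5.59 and 7.02 in NC siRNA#2, 3.85 and 3.56 in siSbp2l and 2.45 and 2.34 in siPdgfra, a log2 change of −1.11 ± 0.11, adjusted p = 2.79e-06 in limma, and both Day0 libraries exceeded all others.

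The tandem-pore gene Kcnk10, a leak channel opened by stretch and lipids, was 12.1 and 11.8 FPKM at Day0, 3.68 and 2.81 in non-treat, 3.57 and 3.23 in mock, 2.00 and 1.84 in NC siRNA#1, 2.39 and 3.13 in NC siRNA#2, 5.43 and 4.86 in siSbp2l and 1.03 and 0.928 in siPdgfra. Its log2 change, −1.59 ± 0.11, adjusted p = 1.61e-07 in limma, was the lowest of the 37 genes. Its relative Kcnk2 was 4.77 and 5.32 FPKM at Day0, 2.28 and 2.32 in non-treat, 3.11 and 3.83 in mock, 3.14 and 3.46 in NC siRNA#1, 2.01 and 1.73 in NC siRNA#2, 2.01 and 1.96 in siSbp2l and 1.45 and 1.97 in siPdgfra, a change of −0.65 ± 0.11 that was under the fold minimum. Kcnk1, a weak leak channel, was 1.74 and 1.68 FPKM at Day0, 2.14 and 1.97 in non-treat, 2.52 and 2.50 in mock, 4.33 and 4.51 in NC siRNA#1, 1.78 and 1.59 in NC siRNA#2, 1.33 and 1.30 in siSbp2l and 2.59 and 2.17 in siPdgfra and differed by 0.27 ± 0.08.

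Among the calcium-activated channel genes 1 was called. Kcnn2, a small-conductance channel, was 0.108 and 0.0652 FPKM at Day0, 1.39 and 1.72 in non-treat, 1.42 and 1.73 in mock, 0.842 and 1.02 in NC siRNA#1, 1.19 and 0.819 in NC siRNA#2, 1.78 and 1.57 in siSbp2l and 0.799 and 0.831 in siPdgfra and rose by 1.24 ± 0.10, adjusted p = 6e-07 (limma). Kcnma1, the pore of the large-conductance channel, was 2.01 and 2.10 FPKM at Day0, 0.387 and 0.889 in non-treat, 0.682 and 0.590 in mock, 0.842 and 0.929 in NC siRNA#1, 0.439 and 0.376 in NC siRNA#2, 0.734 and 0.547 in siSbp2l and 0.160 and 0.159 in siPdgfra. It was highest in both Day0 libraries, with a change of −0.91 ± 0.11. Kcnmb4, a beta subunit of that channel, was 7.21 and 6.55 FPKM at Day0, 12.7 and 8.57 in non-treat, 9.09 and 9.18 in mock, 6.26 and 6.79 in NC siRNA#1, 7.37 and 8.64 in NC siRNA#2, 9.72 and 11.2 in siSbp2l and 2.79 and 2.49 in siPdgfra and changed by 0.45 ± 0.13. Antisense transcripts annotated at this gene cover 10.7% and 20.8% of its exons, with the same limit on strand.

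As sums over a family, the Kv pore-forming genes went from 88.2 ± 3.3 FPKM at Day0 (SD, n = 2) to 319.5 ± 63.8 in non-treat and 336 ± 3.0 in mock, the inward rectifiers from 67.7 ± 1.9 to 180.3 ± 1.2 and 191 ± 0.5, and the tandem-pore genes from 19.6 ± 0.3 to 8.07 ± 0.88 and 9.98 ± 0.08 FPKM. At Day3 Kcna1 and Kcna2 made up most of the Kv sum and Kcnj10 most of the inward rectifier sum. The OL markers rose over the same step, as given above, and their part in these changes was not tested.

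**Figure D2:**
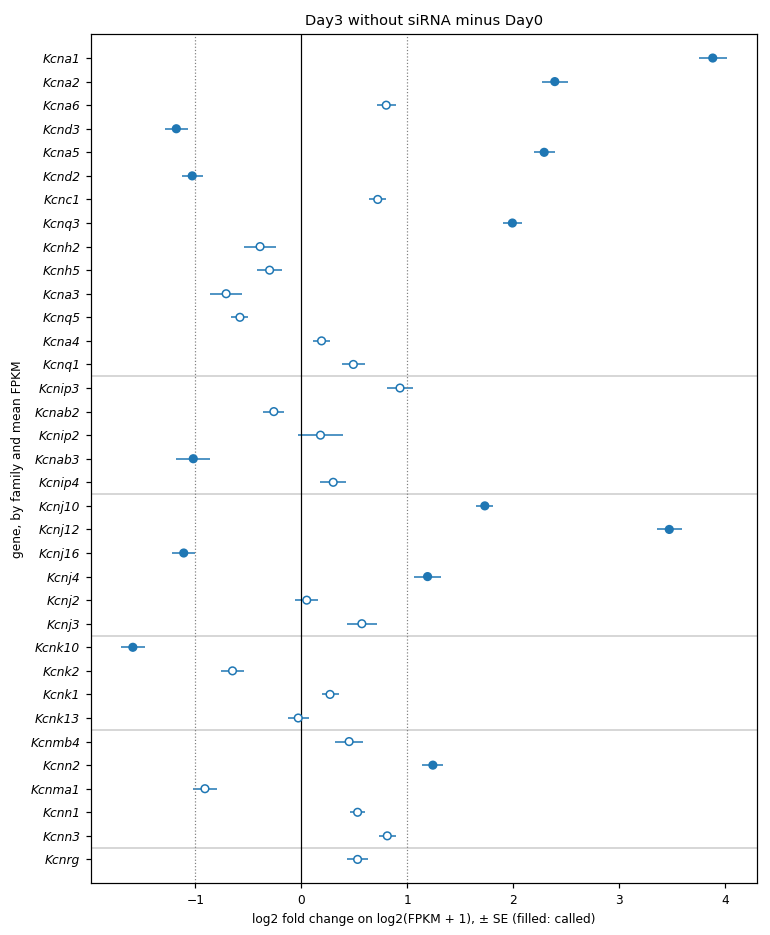
log2 fold change on log2(FPKM + 1) from Day0 to Day3 without siRNA for 35 of the 37 genes, with bars of 1 SE and dotted lines at the fold minimum. Kcna1 (3.88) and Kcnj12 (3.47) lie farthest to the right and Kcnk10 (−1.59) farthest to the left.

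The second comparison set siSbp2l against the mean of the 4 Day3 control groups, to show where cells given this siRNA differed from controls. Called were 5 of the 37 genes (13.5%), all lower, against 7.06% of all genes, 3.06% higher and 4% lower. The median log2 change was −0.19 over the 37 genes and 0.14 over all genes. With median-ratio scaling the median of all genes moved to 0 and the count stayed at 5. Without the non-treat group the count was also 5. Kcnj12 and Kcna1 were called against each of the 4 control groups on its own, a rule met by 3.17% of all genes. Kcnj10 and Kcnip3 were not called against NC siRNA#1, nor Kcna2 against NC siRNA#2.

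Kcnj12 was at 2.21 and 2.09 FPKM in siSbp2l, where the 8 control libraries ran from 8.20 to 14.7 FPKM, a log2 change of −2.03 ± 0.11, adjusted p = 1.06e-07 in limma. Kcna1, at 58.1 and 61.6 FPKM, was below every control library (−1.82 ± 0.12, adjusted p = 3.46e-07, limma). Kcnip3 fell to 16.0 and 18.3 FPKM (−1.78 ± 0.11, adjusted p = 2.86e-07, limma), and its controls were spread from 29.1 FPKM in NC siRNA#1 to 84.1 FPKM in mock. Kcna2 was at 20.6 and 22.5 FPKM (−1.35 ± 0.11, adjusted p = 1.75e-06, limma), also below all controls. Kcnj10 was at 63.5 and 66.6 FPKM (−1.14 ± 0.07, adjusted p = 2.36e-07, limma), with NC siRNA#1 the nearest control at 96.1 and 102 FPKM.

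In siSbp2l, 4 of these genes lay between their Day0 and Day3 control levels, and Kcnip3 lay below Day0 as well. The genes called as lower at Day3 than at Day0 gave no call here: Kcnd3 changed by −0.09 ± 0.10, Kcnd2 by 0.41 ± 0.09, Kcnk10 by 0.70 ± 0.10, Kcnab3 by −0.50 ± 0.14 and Kcnj16 by −0.63 ± 0.10. Kcna6 changed by −0.62 ± 0.08, Kcnk1 by −0.61 ± 0.07, Kcnq3 by −0.91 ± 0.08 and Kcna5 by −0.19 ± 0.09. Kcnk2, Kcnn2 and Kcnma1 differed by −0.30 ± 0.10, 0.26 ± 0.09 and 0.01 ± 0.10. The summed OL markers were lower in siSbp2l than in any control library, and their part in the fall of the 5 genes was not tested.

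The third comparison set siPdgfra against the same 4 control groups. Of the 37 genes 7 were called (18.9%), 2 higher and 5 lower, against 7.82% of all genes, 3.88% higher and 3.94% lower. The medians were −0.30 over the 37 genes and 0.09 over all genes. Without the non-treat group the count was again 7. Kcnj12, Kcnmb4, Kcna4 and Kcnc1 were called against each control group on its own, where 3.54% of all genes were. Kcna4 passed the minimum only through siPdgfra, so it had to be higher there and its calls lend no support. This comparison and the previous one share their controls, so the values of both knockdowns are set side by side below and no overlap is read from them. The summed OL markers of siPdgfra overlapped those of NC siRNA#2 and lay below the other controls, and the summed astrocyte markers (37.6 to 38.3 FPKM) lay below all 8 control libraries (74.6 to 135 FPKM). The part of either in these results was not tested.

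Kcnj12, at 1.47 and 1.36 FPKM, changed by −2.42 ± 0.11, adjusted p = 3.44e-08 (limma). Kcna5 was at 2.85 and 2.56 FPKM, below the 8 control libraries, which themselves ran from 3.43 to 22.0 FPKM. Its log2 change was −1.65 ± 0.09, adjusted p = 1.74e-07 in limma and was not called against non-treat alone. Kcnmb4 was at 2.79 and 2.49 FPKM, and its controls ran from 6.26 to 12.7 FPKM (−1.37 ± 0.12, adjusted p = 4.33e-06, limma). Kcnq3 was at 0.325 and 0.382 FPKM (−1.32 ± 0.08, adjusted p = 2.23e-07, limma), a call lost against NC siRNA#2 alone and with 5 added to FPKM in place of 1. Kcnj16 was at 2.45 and 2.34 FPKM (−1.10 ± 0.10, adjusted p = 3.95e-06, limma), a call lost against NC siRNA#1 alone and with 5 added to FPKM in place of 1.

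Both genes called as higher, Kcna4 with the limit just given, were Kv pore-forming. Kcnc1, a Kv3 subunit of fast-firing cells, was 0.322 and 0.348 FPKM at Day0, 1.02 and 0.881 in non-treat, 1.55 and 1.39 in mock, 1.48 and 1.75 in NC siRNA#1, 0.785 and 0.842 in NC siRNA#2, 2.34 and 2.06 in siSbp2l and 5.41 and 4.96 in siPdgfra. The siPdgfra libraries were the highest of the 14, with a log2 change of 1.50 ± 0.08, adjusted p = 6.57e-08 in limma. Kcna4, which passed the minimum only through siPdgfra, changed by 1.10 ± 0.07. Kcnj2, of the Kir2 group and 38.2 kb from Kcnj16 on chromosome 11, was at 2.83 and 2.98 FPKM where its controls ran from 0.688 to 1.37 FPKM, and its change of 1.00 ± 0.10 did not reach the fold minimum. Kcnq1 and Kcnk13, which also passed only through siPdgfra, changed by 0.87 ± 0.10 and 0.74 ± 0.09.

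Side by side, Kcna1 changed by −1.82 ± 0.12 in siSbp2l and −0.91 ± 0.12 in siPdgfra, Kcna2 by −1.35 ± 0.11 and −0.87 ± 0.11, and Kcnj10 by −1.14 ± 0.07 and −0.82 ± 0.07. Kcnd3 changed by −0.09 ± 0.10 and −0.82 ± 0.10, and Kcnd2 by 0.41 ± 0.09 and −0.41 ± 0.09. As family sums, the Kv pore-forming genes stood at 139.8 ± 5.8 FPKM in siSbp2l (SD, n = 2) and 207 ± 14.9 in siPdgfra, against 319.5 to 409 in the means of the control groups. The inward rectifiers stood at 75.9 ± 1.6 and 92.7 ± 6.9 FPKM, against 122 to 191.

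**Figure D3:**
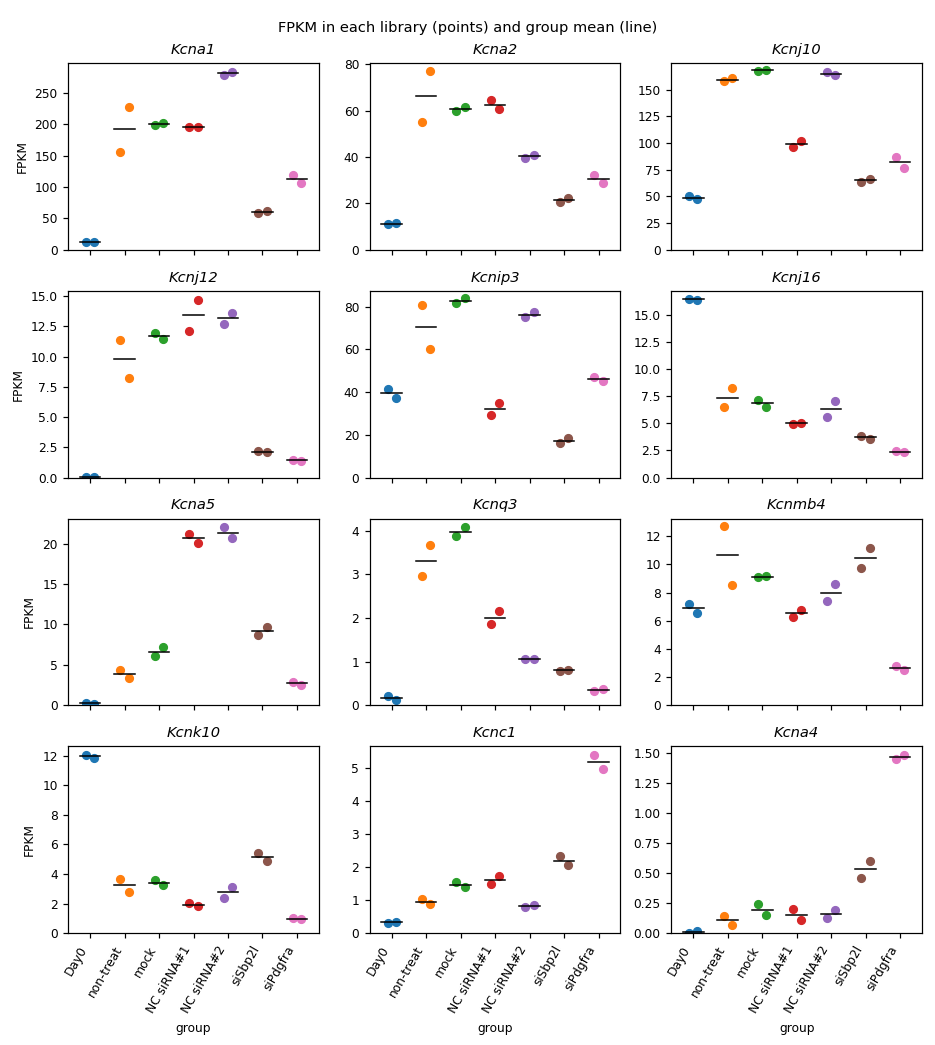
FPKM in each library (points, 2 per group) and the group mean (line) for 12 of the potassium channel genes, each on its own axis from 0. Kcnj12 is low at Day0 and in both knockdowns, and Kcna5 is highest in NC siRNA#1 and NC siRNA#2 (20.1 to 22.0 FPKM).

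**Figure D4:**
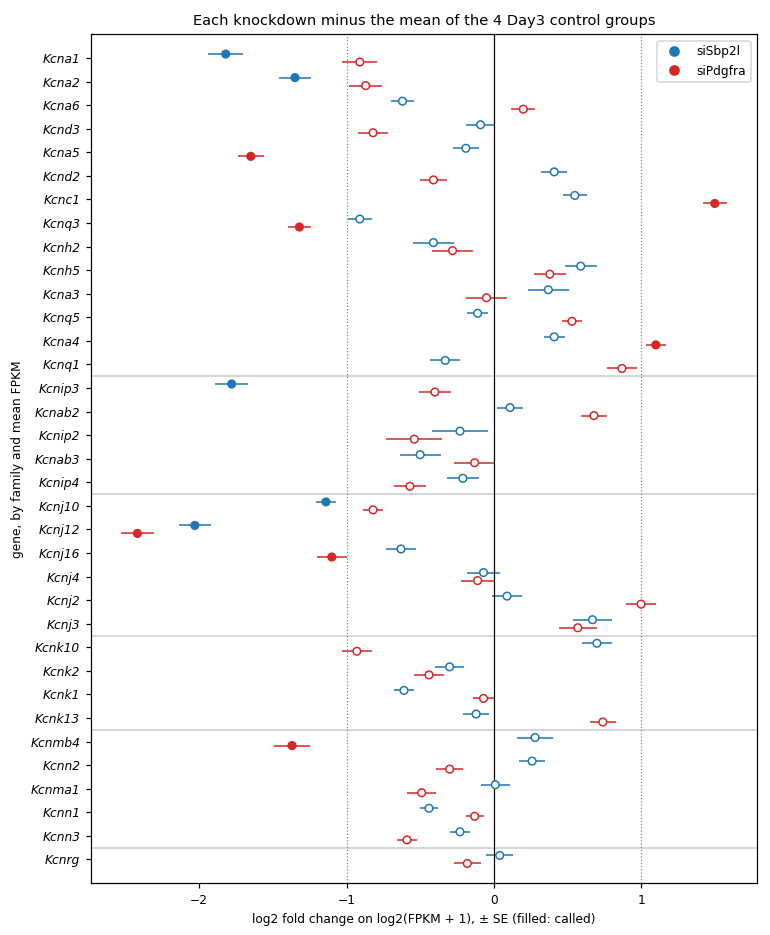
log2 fold change of 35 of the 37 genes in siSbp2l and in siPdgfra against the mean of the 4 Day3 control groups, with bars of 1 SE, filled where called. Kcnj12 is far to the left in both (−2.03 and −2.42), Kcna1 and Kcnip3 are filled for siSbp2l alone, and Kcnmb4 lies on opposite sides of 0 (0.28 and −1.37).

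The direct comparison of siSbp2l with siPdgfra tested where they differ. It called 5 of the 37 genes (13.5%), 3 higher and 2 lower in siSbp2l, against 13.4% of all genes, 6.8% higher and 6.6% lower, so the share was near that of all genes. Kcnmb4, the calcium-activated beta subunit, was 9.72 and 11.2 FPKM in siSbp2l against 2.79 and 2.49 in siPdgfra (1.65 ± 0.15, adjusted p = 6.58e-06, limma). Kcnk10 was 5.43 and 4.86 against 1.03 and 0.928 FPKM (1.63 ± 0.13, adjusted p = 1.64e-06, limma), the first above and the second below all 8 control libraries. Kcna5 was 8.65 and 9.69 against 2.85 and 2.56 FPKM (1.46 ± 0.12, adjusted p = 2.4e-06, limma). Kcnip3 was 16.0 and 18.3 against 47.3 and 45.0 FPKM (−1.38 ± 0.14, adjusted p = 1.09e-05, limma). Kcnq1 was listed at 0 in both siSbp2l libraries and at 1.08 and 1.55 FPKM in siPdgfra. It passed the minimum only through siPdgfra, so its call lends no support. Kcna1 and Kcnj12 differed by −0.91 ± 0.15 and 0.39 ± 0.14, under the fold minimum.

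The non-targeting siRNAs were compared with each other and with the groups that had none. Between NC siRNA#1 and NC siRNA#2, 4 of the 37 genes were called (10.8%), 1 higher and 3 lower in NC siRNA#1, against 3.92% of all genes, 2.32% higher and 1.6% lower. Kcnip3 was 29.1 and 34.8 FPKM against 75.0 and 77.5 (−1.24 ± 0.14, adjusted p = 8.06e-05, limma). Kcnip2, another Kv4 partner, was 1.98 and 1.27 against 3.70 and 5.90 FPKM (−1.13 ± 0.24, adjusted p = 0.00569, limma). Kcnh5, an ether-a-go-go channel, was 0.425 and 0.672 against 1.97 and 2.48 FPKM (−1.06 ± 0.14, adjusted p = 0.000243, limma). Kcnk1 was 4.33 and 4.51 against 1.78 and 1.59 FPKM (1.01 ± 0.09, adjusted p = 1.73e-05, limma). Without NC siRNA#1 replicate 2 the count was 2, and without NC siRNA#2 replicate 2, the shallowest library, it was 1, Kcnip3. Summed OL markers were also higher in NC siRNA#1 than in NC siRNA#2, and their part was not tested.

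Against the mean of non-treat and mock, both non-targeting siRNAs together changed 1 of the 37 genes (2.7%), which was higher, where 1.26% of all genes were called, 0.463% higher and 0.8% lower. It was Kcna5, at 21.2 and 20.1 FPKM in NC siRNA#1 and 22.0 and 20.6 in NC siRNA#2 against 3.43 to 7.18 FPKM in the 4 libraries without siRNA (1.85 ± 0.08, adjusted p = 3.73e-07, limma). No library of the one set overlapped the other. In siSbp2l, which also received an siRNA, Kcna5 was 8.65 and 9.69 FPKM, and in siPdgfra 2.85 and 2.56 FPKM. Kcnq3 differed by −0.90 ± 0.07 and Kcnip3 by −0.61 ± 0.10. Against mock alone, without the non-treat group, 2 genes were called, Kcna5 as higher and Kcnq3 as lower (−1 ± 0.09, adjusted p = 3.48e-05, limma).

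Genes that work with these channels were followed as lists, and in their counts rose and fell mean called. The counts stand beside the share of all genes called in each comparison. From Day0 to Day3 without siRNA, where 26% of all genes were called, of 5 tested channel partners not named Kcn 2 rose and none fell, Ank3, the axon and membrane anchor (11.1 to 47.1 FPKM), and Dpp10, a Kv4 partner (0.746 to 3.71 FPKM). Of 12 tested potassium transport genes 3 rose and 1 fell, and among those that rose were the sodium pump subunit Atp1b2 (67.4 to 191.5 FPKM) and the cotransporter Slc12a2 (59.5 to 149 FPKM). Of 3 tested glial gap junction genes 2 rose, Gjc3 among them, and of 17 other voltage-gated cation channel genes 4 rose and 2 fell. The largest of these was Hcn2, a pacemaker channel, from 2.10 to 38.9 FPKM. The medians of the lists were 0.64, 0.27, 2.18 and −0.18, against −0.09 over all genes.

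In siSbp2l, where 7.06% of all genes were called, of the same lists 1 partner rose (Cntn2, 0.45 to 6.18 FPKM) and none fell, 1 transport gene fell (Slc12a2, 148 to 24.2 FPKM), 2 gap junction genes fell (Gjc3 among them) and 2 of the other channels fell (Hcn2, 40.8 to 9.80 FPKM, and Cacnb4, a calcium channel beta subunit, 2.85 to 0.51 FPKM). The medians were −0.16, −0.07, −1.64 and 0.24, against 0.14 over all genes. In siPdgfra, where 7.82% of all genes were called, no partner was called, 4 transport genes fell (Atp1b2, 218 to 55.7 FPKM, Slc12a2, Fxyd6 and Fxyd7), 1 gap junction gene rose (Gjb1, 2.29 to 10.8 FPKM) and 1 fell, and Hcn2 and Cacnb4 fell. Those medians were −0.30, −0.72, 0.29 and −0.18, against 0.09 over all genes. The direct comparison of the knockdowns, which called 13.4% of all genes, gave 1 of the 5 partners as higher in siSbp2l (Cntn2), 3 of the 12 transport genes as higher (Atp1b2, Fxyd6 and Slc12a5, a potassium-chloride cotransporter), 2 of the 3 gap junction genes as lower (Gjc3 and Gjb1) and 2 of the 17 other channels as higher (Scn8a and Cacnb1). Among these, Atp1b2 was at 266 FPKM in siSbp2l and 55.7 FPKM in siPdgfra (log2 difference 2.24 ± 0.15, adjusted p = 6.33e-07, limma), and Gjb1 at 1.05 and 10.8 FPKM (−2.52 ± 0.24, adjusted p = 7.77e-06, limma).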

How the data were processed

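Gene expression was measured by mRNA sequencing in 14 libraries of mouse OPCs, 2 per group. The authors processed the reads in OmicSoft ArrayStudio and deposited FPKM values on the mm10 refGene model; the libraries were made with a stranded kit, and the aligner and the strand setting in counting are not given in the sources used here. A table of the authors' own siSbp2l comparisons was used for coordinates and exon lengths only. From the FPKM, log2(FPKM + 1) was fitted in limma 3.58.1 (R 4.3.3) with 1 mean per group over all 14 libraries, a trend and robust moderation, on genes with FPKM of at least 1 in 2 libraries, and p-values were adjusted by Benjamini-Hochberg over all 11874. Since the values are FPKM, no count test was run. The same-numbered libraries were not treated as pairs. Depth was recovered from low values (at least 0.2 FPKM, at most 50 fragments); 88.8% to 92.5% of those of single-transcript genes were whole within 0.1. Per-library values are given for the 8 highest genes, for up to 6 called genes per direction and comparison, and for a fixed list of glial channels; Kcnj4 and Kcnj2 were added after their values were seen. A few genes are not reported here or drawn. The potassium channel genes and all lists were chosen with earlier results of these data known. The fit was tested on simulated data. Alternatives covered the pseudocount, scaling, minimum, moderation, replicate block and omitted libraries.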

Additional observations from a re-analysis of the deposited data

Results flagged for a closer look

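The fitted changes of 2 potassium channel genes from the 4 Day3 control groups lay on opposite sides of 0 in siSbp2l and siPdgfra, and the difference between the knockdowns was called (limma, on log2(FPKM + 1)). Kcnmb4 changed by 0.28 in siSbp2l and −1.37 in siPdgfra, a difference of 1.65 (adjusted p = 6.58e-06, limma). Kcnk10 changed by 0.70 and −0.93, a difference of 1.63 (adjusted p = 1.64e-06, limma). Of these 4 changes from the controls, that of Kcnmb4 in siPdgfra was called. The change of Kcnmb4 in siSbp2l had an SE of 0.12 and adjusted p = 0.0732 (limma), so its side of 0 is not settled. Both changes of Kcnk10 were under the fold minimum.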

How the results depend on the processing

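Of 35 called pairs of a gene and a comparison, 12 were called under every alternative run, 23 lost the call under at least 1 and none reversed. In the order Day3 without siRNA minus Day0, siSbp2l and siPdgfra minus the 4 control groups, siSbp2l minus siPdgfra, NC siRNA#1 minus NC siRNA#2, and both NC siRNAs minus no siRNA, the called counts of 13, 5, 7, 5, 4 and 1 became 23, 11, 16, 14, 5 and 4 with a pseudocount of 0.1, 5, 5, 2, 2, 1 and 1 with a pseudocount of 5, and 32, 24, 28, 26, 15 and 17 with no fold minimum, where 8389, 6505, 6748, 6400, 2690 and 3693 of the 11874 genes tested passed. A pseudocount acts most on genes near 1 FPKM, where most potassium channel genes lie. With 5, the Day0 to Day3 calls of Kcna5, Kcnq3, Kcnd2, Kcnd3, Kcnab3, Kcnj4, Kcnj16 and Kcnn2 were lost. In siPdgfra against controls those of Kcnmb4, Kcnj16, Kcnq3, Kcna4 and Kcnc1 were lost. Between the knockdowns those of Kcnk10, Kcna5 and Kcnq1 were lost, and between the non-targeting siRNAs those of Kcnh5, Kcnip2 and Kcnk1. With a minimum of 5 FPKM, 9, 5, 4, 4, 2 and 1 were called, since fewer genes were tested. Called against each of the 4 control groups were 2 genes for siSbp2l and 4 for siPdgfra. Against mock, NC siRNA#1 alone and NC siRNA#2 alone each called 2, and both together 2 (without the non-treat group, an alternative chosen after seeing the data). Leaving out 1 library at a time gave 12 to 14, 5, 6 to 8, 4 to 6, 1 to 4 and 1, in the same order. Where that left 1 library in a group, it was assumed to vary like the other groups.

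The fit with a replicate block called 13, 5, 7, 5, 4 and 1, the unblocked counts. Replicate differences of 2 groups correlated by −0.38 to 0.473, over 0.1 in 4 of 21 pairs of groups, so the numbers were not taken to pair the samples. Other scalings, no minimum, no moderation by trend, and fits of only the libraries compared or of the 12 Day3 libraries kept every count within 1.5 times.

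With 2 libraries a group, each spread rests on few values. Over 2 kb of exon, 3 fragments correspond to between 0.0474 and 0.229 FPKM depending on depth, a floor for counting error only.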
